A study of Homo sapiens with 6 samples.

Results

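The GADD45, BTG and TOB genes, with PPP1R15A, encode 8 proteins that act in growth arrest and stress responses. They were chosen by symbol, with earlier results of these data known, and each symbol matched 1 of the 58051 gene rows of the count table. The cells were A375, an established human melanoma line with a mutant BRAF gene, starved for 2 h before treatment. The 3 TGFB1 libraries came from cells given the ligand at 10 ng/mL for 2 h, and the 3 Vehicle libraries from cells given its carrier, HCl at 4 mM with BSA at 1 mg/mL, for the same 2 h. The series' design text describes technical triplicates of this 1 line, so each p-value measures the spread between libraries and not between independent experiments.

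GADD45A, GADD45B and GADD45G are small acidic proteins that bind the kinase MAP3K4, the replication clamp PCNA and the CDK1/cyclin B1 complex, and so connect stress signals to the p38 and JNK kinases and to cell cycle arrest. BTG1, BTG2, TOB1 and TOB2 share a domain that binds the deadenylases CNOT7 and CNOT8 of the CCR4-NOT complex, which shortens the poly(A) tails of mRNAs. PPP1R15A, also called GADD34, brings protein phosphatase 1 to the initiation factor eIF2alpha and restores translation after stress. GADD45B is known from epithelial cells and hepatocytes as a SMAD-dependent target of TGF-beta.

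The stretch just upstream of a gene's start is where the core transcription machinery assembles, and 3 of these stretches are shown because they belong to the GADD45 gene that rose, to its paralog with the lowest level and to the gene nearest to no change. They are the 250 bases before the RefSeq start (GRCh38.p14, each on the plus strand) at chr19:2475877-2476126 for GADD45B, chr9:89604762-89605011 for GADD45G and chr19:48872171-48872420 for PPP1R15A. Capitals mark every match, on either strand, to 7 motifs: the SMAD box GTCT, its palindrome GTCTAGAC (which holds the box), the GC-rich SMAD motif GGCGCC, the AP-1 motif TGANTCA, the CRE/ATF motif TGACGTCA, the E-box CACGTG and the TATA box TATAAA.
GADD45B: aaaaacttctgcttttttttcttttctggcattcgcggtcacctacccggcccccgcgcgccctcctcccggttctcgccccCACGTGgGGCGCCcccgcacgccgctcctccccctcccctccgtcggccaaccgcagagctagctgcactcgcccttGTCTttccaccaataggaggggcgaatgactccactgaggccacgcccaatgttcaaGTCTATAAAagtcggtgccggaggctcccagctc
GADD45G: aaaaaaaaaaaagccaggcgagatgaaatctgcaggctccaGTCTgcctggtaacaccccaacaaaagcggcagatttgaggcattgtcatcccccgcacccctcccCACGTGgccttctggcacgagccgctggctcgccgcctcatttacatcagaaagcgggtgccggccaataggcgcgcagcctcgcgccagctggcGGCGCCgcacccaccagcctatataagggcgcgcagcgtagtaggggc
PPP1R15A: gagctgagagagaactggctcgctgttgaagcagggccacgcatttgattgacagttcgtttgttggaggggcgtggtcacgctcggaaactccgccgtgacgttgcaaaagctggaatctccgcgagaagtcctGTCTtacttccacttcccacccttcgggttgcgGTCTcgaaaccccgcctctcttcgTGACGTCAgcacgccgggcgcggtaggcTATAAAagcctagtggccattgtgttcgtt

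The GADD45B window held GTCT at 91 and 34 bases before the start, the second of them sharing its last base with a TATAAA at 31, and GGCGCC at 161 beside CACGTG at 168. The GADD45G window held 1 GTCT, 1 GGCGCC and 1 CACGTG and no exact TATAAA. It does hold the similar letters TATATAA near its end, a spelling that was not among the 7 motifs and so is not marked. PPP1R15A had 2 GTCT, the CRE/ATF letters at 58 and TATAAA at 30. These distances run from the RefSeq starts. GENCODE 29, the annotation used for gene positions below, starts GADD45B at 2476122 and PPP1R15A at 48872392, both inside these windows. Among 35116 windows of this length in the RefSeq table, GTCT occurred in 77.5% (at least 2 in 45.6%), GGCGCC in 16.4%, CACGTG in 6.34%, TATAAA in 10.7%, TGACGTCA in 1.65%, TGANTCA in 6.57% and GTCTAGAC in 0.182%. Windows were at hand for 7 of the 8 genes. BTG1 held 1 GTCT and 1 TATAAA, TOB2 1 GTCT, and BTG2 and both windows of TOB1 none of the 7. These matches are a description of letters and were not tested for binding.

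Library totals were 32458753 to 34895075 counts with TGFB1 and 24713894 to 34374668 counts with Vehicle. SMAD7, an immediate target of the ligand, was at 61.1 ± 3.49 CPM (counts per 1000000, scaled by TMM) in TGFB1 and 9.29 ± 1.74 CPM in Vehicle (SD, n = 3 each), or 2.70 on the log2 scale. Vehicle replicate 1 lay farthest from the other libraries on the first principal component, at 37.1, with Vehicle replicates 2 and 3 at 13.4 and 8.25 and the TGFB1 libraries at -20.7 to -17.7. Of 10 melanoma markers 5 averaged at least 1 CPM, with summed levels of 338.3 to 360.04 CPM in TGFB1 and 370.3 to 379.4 CPM in Vehicle. MCAM (239.3 CPM), MITF (58.1 CPM) and S100B (56.8 CPM) carried that sum, whereas PMEL, MLANA and TYR were under 1 CPM and SOX10 had 0 counts. Markers of fibroblasts summed to 16.9 to 17.97 CPM in TGFB1 and 19.1 to 23.03 CPM in Vehicle, with 4 of 7 above 1 CPM and COL1A1 at 0.132 CPM. Epithelial markers summed to 14.9 to 18.7 CPM in TGFB1 and 14.2 to 16.8 CPM in Vehicle, nearly all of it KRT14. Leukocyte markers summed to 5.71 to 6.67 CPM in TGFB1 and 6.23 to 7.79 CPM in Vehicle, with 1 of 5 above 1 CPM and PTPRC at 0.181 CPM, and endothelial markers to 0.584 to 0.974 CPM in TGFB1 and 0.368 to 1.02 CPM in Vehicle. The part of these markers in the results was not tested.

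GADD45B was the only gene of the 8 to pass the test at the adjusted threshold. All 8 passed the low-count filter, 1 was higher with TGFB1 and 0 were lower by edgeR's quasi-likelihood test (Benjamini-Hochberg adjusted p under 0.05 over 16690 genes), where 2.43% of all tested genes were higher and 0.887% lower (3.31% in all). At an unadjusted p under 0.05 there were 4 (12.3% of all tested genes), GADD45B, BTG1 and TOB2 being higher with TGFB1 (7.41% of all) and GADD45A lower (4.87% of all). For GADD45A, GADD45B and TOB2, 3 of the 8, every TGFB1 library lay to 1 side of every Vehicle library, where the share over all tested genes was 16.4%. The median log2 fold change of the 8 was 0.01, beside -0.01 over all tested genes, and the median size was 0.146 beside 0.105.

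**Figure D1:**
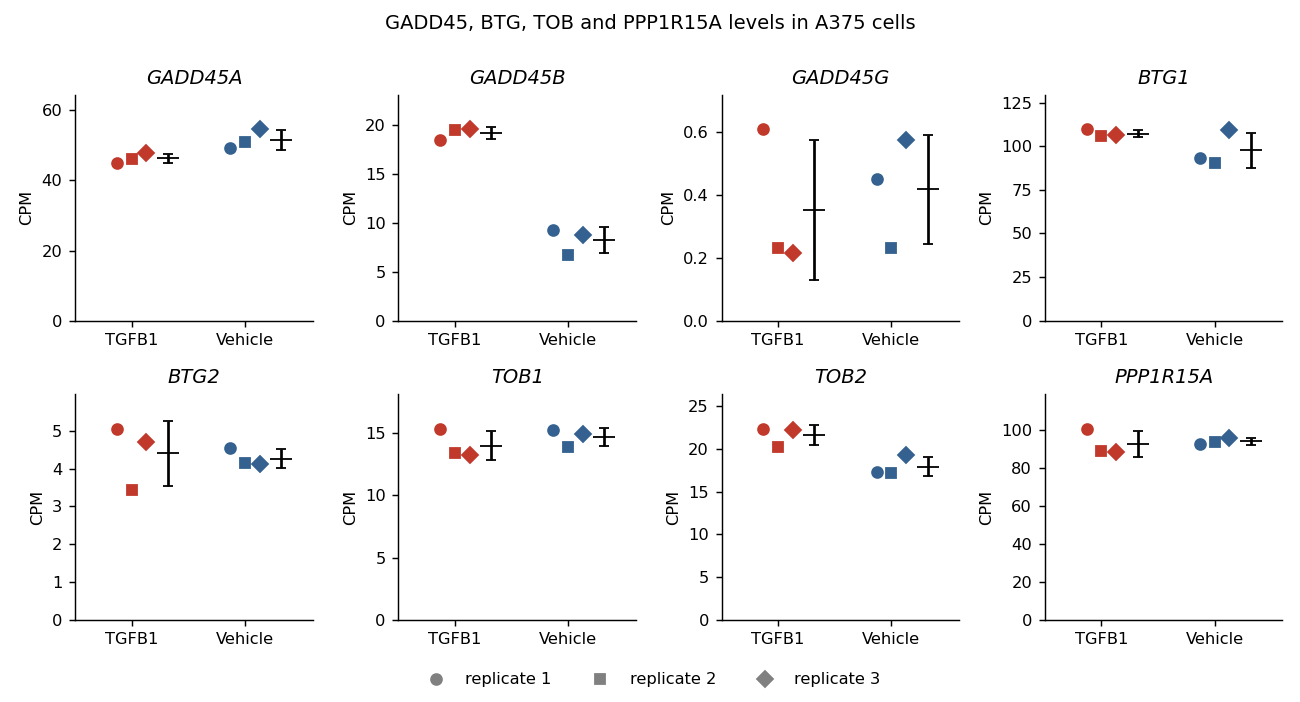
TMM-scaled counts per 1000000 (CPM, axis from 0) of each gene in every library, TGFB1 on the left of each panel and Vehicle on the right; marker shapes give the replicate, and the bars beside them are mean ± SD (n = 3). GADD45B lies at 18.5 to 19.6 CPM in the TGFB1 libraries and at 6.74 to 9.29 CPM in the Vehicle libraries. Groups also do not overlap for GADD45A, lower with TGFB1, and TOB2, higher with TGFB1, neither of which passed the test.

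GADD45B lies on chromosome 19 at 2476122 to 2478259 (plus strand, GRCh38, GENCODE 29), and its main coding transcript has 4 exons. Its reads numbered 606, 676 and 637 in TGFB1 replicates 1, 2 and 3, against 227, 205 and 306 in Vehicle replicates 1, 2 and 3. On the CPM scale these were 18.5, 19.5 and 19.6 in TGFB1 and 9.29, 6.74 and 8.79 in Vehicle. Every TGFB1 library was above every Vehicle library, and the TGFB1 libraries lay closer together. The mean was 19.2 ± 0.632 CPM with TGFB1 and 8.27 ± 1.35 CPM with Vehicle (SD, n = 3 each). The log2 fold change was 1.22 ± 0.12 (SE), with a 95% interval of 0.98 to 1.46 (edgeR adjusted p = 2.45e-09). That is 2.32-fold. In bulk libraries, more cells that make a transcript and more of it per cell cannot be told apart. Among the 405 genes that were higher, it stood 85th by log2 fold change, and 66th of all 16690 by p. No exon of another gene overlaps its exons in GENCODE 29.

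GADD45A, the paralog induced by DNA damage through p53, moved little and the other way. It lies on chromosome 1 at 67685061 to 67688338 (plus strand). It stood at 45.1, 46.01 and 47.7 CPM in TGFB1 replicates 1, 2 and 3, against 49.1, 50.96 and 54.5 CPM in Vehicle replicates 1, 2 and 3. The TGFB1 libraries were all below the Vehicle libraries, but the gap between the highest TGFB1 and the lowest Vehicle library was small beside the spread within Vehicle. The log2 fold change was -0.16 ± 0.07 (SE; 95% interval -0.29 to -0.02), and it did not pass (edgeR adjusted p = 0.296).

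GADD45G, the third paralog, was close to silent. It lies on chromosome 9 at 89605013 to 89606555 (plus strand). Its reads numbered 20, 8 and 7 in the TGFB1 libraries, against 11, 7 and 20 in the Vehicle libraries. The groups overlapped, and the 95% interval of the log2 fold change, -1.48 to 0.97 around -0.26, allows a change of the size seen for GADD45B in the downward direction (edgeR adjusted p = 0.928).

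**Figure D2:**
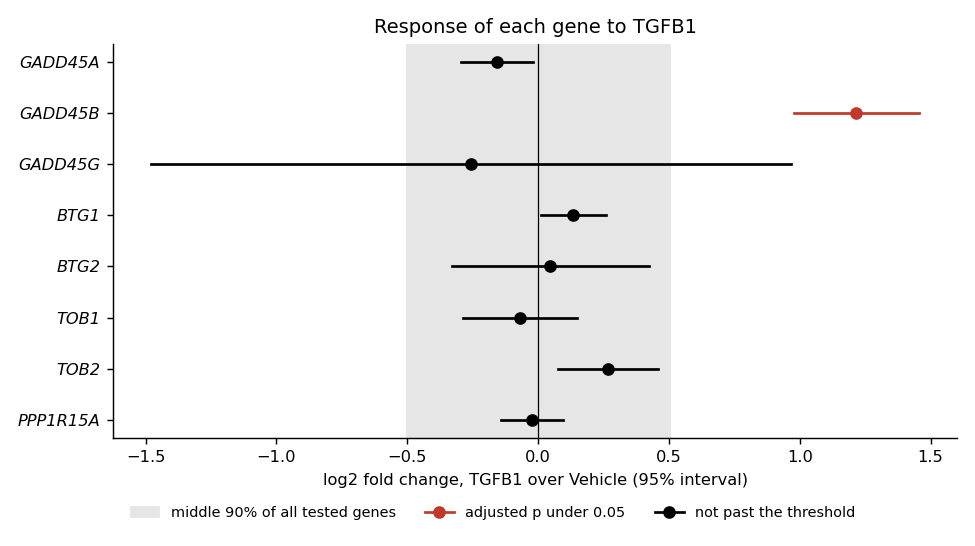
The log2 fold change of each gene, TGFB1 over Vehicle, with its 95% interval from the edgeR fit; the grey band holds the middle 90% of all 16690 tested genes (-0.50 to 0.51). GADD45B at 1.22 lies outside the band, and the points of the other 7 genes lie inside it.

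Scaled by exon length, the GADD45 genes shifted in their make-up more than in their sum. GADD45B was at 8.97 ± 0.295 CPM per kb with TGFB1 and 3.87 ± 0.633 CPM per kb with Vehicle, and GADD45A at 22.4 ± 0.638 CPM per kb with TGFB1 and 24.9 ± 1.33 CPM per kb with Vehicle (SD, n = 3 each). The 3 paralogs summed to 30.9, 31.5 and 32.4 CPM per kb in TGFB1 replicates 1, 2 and 3, against 28.4, 27.95 and 30.9 CPM per kb in Vehicle replicates 1, 2 and 3, so that Vehicle replicate 3 just overlapped the TGFB1 libraries. The share of GADD45B in the sum was 28.4 ± 0.514% with TGFB1 and 13.3 ± 2.004% with Vehicle, that of GADD45A 70.8 ± 0.403% with TGFB1 and 85.6 ± 2.31% with Vehicle (SD, n = 3 each). GADD45G held 0.849 ± 0.557% with TGFB1 and 1.08 ± 0.406% with Vehicle. The log2 ratio of GADD45B to GADD45A counts, which no scaling of the libraries can alter, was -1.27 ± 0.03 with TGFB1 and -2.65 ± 0.26 with Vehicle. The difference was 1.38, with no overlap between the groups (two-sided exact permutation p = 0.1, the smallest that 3 against 3 allows, and 0.2 adjusted over the 4 paralog ratios tested).

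**Figure D3:**
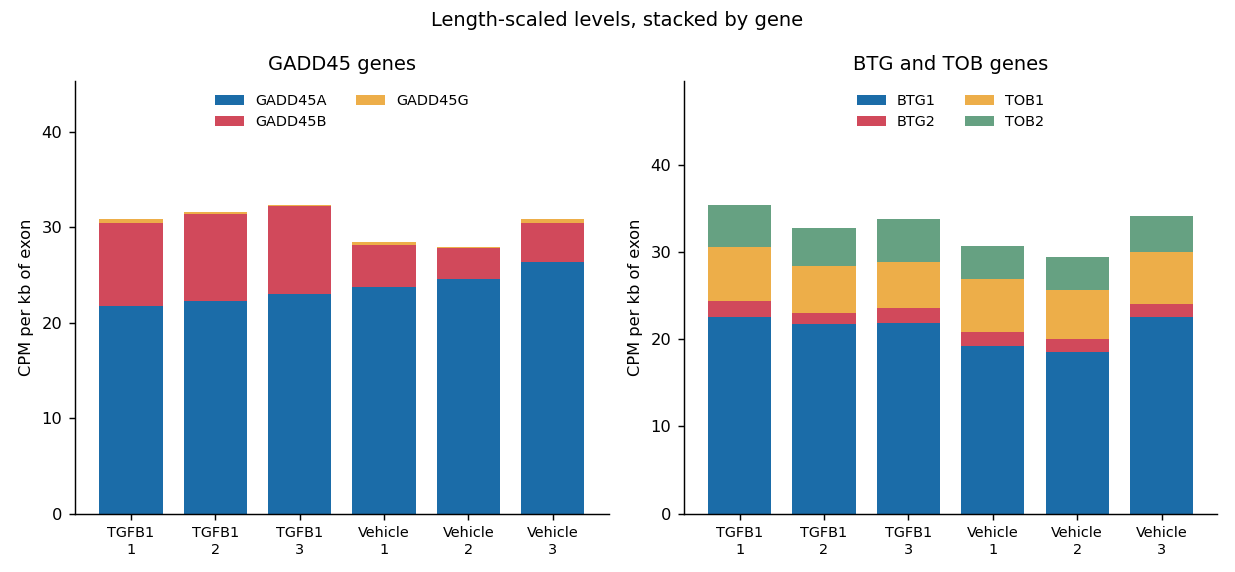
Length-scaled levels (CPM per kb of union exon, stacked from 0) of the GADD45 genes on the left and the BTG and TOB genes on the right, 1 bar per library, with TGFB1 left of Vehicle. GADD45B takes 28.4% of the GADD45 stack with TGFB1 and 13.3% with Vehicle, while BTG1 takes 65.05% of the BTG and TOB stack with TGFB1 and 63.9% with Vehicle.

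None of the BTG and TOB genes passed the test. BTG1, the antiproliferative gene often mutated in lymphomas, lies on chromosome 12 at 92140278 to 92145897 (minus strand). It stood at 109.6, 105.8 and 106.3 CPM in TGFB1 replicates 1, 2 and 3, against 93.2, 90.2 and 109.3 CPM in Vehicle replicates 1, 2 and 3. Vehicle replicate 3 lay among the TGFB1 libraries and the other two Vehicle libraries below them. For BTG1 the log2 fold change was 0.13 ± 0.06 (SE; 95% interval 0.01 to 0.26; edgeR adjusted p = 0.351). Without Vehicle replicate 3 it was 0.23 (edgeR adjusted p = 0.00956). That fit called 923 genes in all, beside 553 with every library, and why BTG1 passed in it was not tested. Of the 4854 exonic bases of BTG1, 503 (10.4%) are shared with LINC01619 on the same strand and 325 (6.70%) with AC025164.1 on the other. Those rows held 63 to 102 and 5 to 25 counts, beside 2278 to 3805 for BTG1.

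TOB2 lies on chromosome 22 at 41433492 to 41447023 (minus strand) and had 22.4, 20.2 and 22.2 CPM in TGFB1 replicates 1, 2 and 3, against 17.3, 17.2 and 19.2 CPM in Vehicle replicates 1, 2 and 3. The groups did not overlap, and the log2 fold change was 0.27 ± 0.09 (SE; 95% interval 0.07 to 0.46), which missed the threshold (edgeR adjusted p = 0.151). It missed it also in every alternative tried, at adjusted p from 0.0544 to 0.479. TOB1, whose protein is known to bind SMADs, lies on chromosome 17 at 50862223 to 50867978 (minus strand). It stood at 15.4, 13.4 and 13.3 CPM in the TGFB1 libraries and 15.3, 13.9 and 14.97 CPM in the Vehicle libraries, which overlapped (log2 fold change -0.07, 95% interval -0.29 to 0.15, edgeR adjusted p = 0.88). Its antisense gene TOB1-AS1 covers 281 (11.1%) of its exonic bases and had 1 to 14 counts. The log2 ratio of TOB2 to TOB1 counts was 0.63 ± 0.10 with TGFB1 and 0.29 ± 0.09 with Vehicle (SD, n = 3 each), a difference of 0.34 (two-sided exact permutation p = 0.1, adjusted 0.2).

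BTG2, a p53 target and early response gene, was low. It lies on chromosome 1 at 203305491 to 203309602 (plus strand), and its reads numbered 166, 119 and 153 in TGFB1 replicates 1, 2 and 3, against 111, 126 and 143 in Vehicle replicates 1, 2 and 3. On the CPM scale these were 5.05, 3.44 and 4.70 in TGFB1 and 4.54, 4.14 and 4.11 in Vehicle, so that the TGFB1 libraries lay on both sides of the Vehicle libraries. Its log2 fold change was 0.05 with a 95% interval of -0.33 to 0.42 (edgeR adjusted p = 0.966). The log2 ratio of BTG2 to BTG1 counts differed by -0.11 (two-sided exact permutation p = 0.6).

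PPP1R15A, which shares the growth arrest and DNA damage name but not the GADD45 fold, lies on chromosome 19 at 48872392 to 48876057 (plus strand). It stood at 100.8, 89.0 and 88.4 CPM in TGFB1 replicates 1, 2 and 3, against 92.6, 93.9 and 96.1 CPM in Vehicle replicates 1, 2 and 3. The Vehicle libraries fell between the highest TGFB1 library and the other two. Its log2 fold change was -0.02 ± 0.06 (SE; 95% interval -0.14 to 0.10; edgeR adjusted p = 0.936), the smallest in size of the 8. On the linear scale that interval spans 0.906 to 1.07 of the Vehicle level. The log2 ratio of PPP1R15A to PPP1R15B counts, where PPP1R15B encodes the constitutive subunit of the same phosphatase, was -0.999 ± 0.12 with TGFB1 and -0.87 ± 0.03 with Vehicle (SD, n = 3 each), which overlapped (two-sided exact permutation p = 0.3).

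Per kb of exon, the order with TGFB1 was PPP1R15A (30.0 ± 2.26 CPM per kb), GADD45A (22.4 ± 0.638), BTG1 (22.1 ± 0.427), GADD45B (8.97 ± 0.295), TOB1 (5.56 ± 0.468), TOB2 (4.73 ± 0.258), BTG2 (1.59 ± 0.308) and GADD45G (0.266 ± 0.169; CPM per kb, SD, n = 3). GADD45A and BTG1 overlapped between libraries in that order, and no other neighbours did. With Vehicle the order was PPP1R15A (30.4 ± 0.576 CPM per kb), GADD45A (24.9 ± 1.33), BTG1 (20.1 ± 2.12), TOB1 (5.83 ± 0.284), TOB2 (3.93 ± 0.249), GADD45B (3.87 ± 0.633), BTG2 (1.55 ± 0.0875) and GADD45G (0.316 ± 0.132; CPM per kb, SD, n = 3), and there TOB2 and GADD45B were the neighbours that overlapped. On the length-scaled level GADD45B thus stood above TOB1 and TOB2 with TGFB1 and below TOB1 with Vehicle.

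The genes have few exons but differ in length. Their main coding transcripts have 2 exons (BTG1, BTG2, TOB1, TOB2), 3 (PPP1R15A) or 4 (the GADD45 genes), beside a median of 9 over 13290 tested coding genes, of which 20.8% have at most 4. Those of BTG1 (4680 bases) and TOB2 (4561 bases) are longer than the median of 3245 bases over the same genes, and the other 6 are shorter. The 3' untranslated regions of BTG1 (3802 bases), TOB2 (2819 bases) and BTG2 (2164 bases) exceed the median of 1106 bases, and those of the other 5 do not. The 3' untranslated region of GADD45B spans 658 bases and holds no ATTTA, the pentamer of AU-rich elements that can speed mRNA decay; that of GADD45G (476 bases) also holds none. GADD45A (564 bases) and PPP1R15A (84 bases) have 2 each, BTG2 2, TOB2 3, TOB1 (757 bases) 4 and BTG1 5. Of the tested coding genes 69.97% have at least 1. None of these counts is scaled by the length of the region. The longer TATTTAT occurs once in GADD45A, BTG1, BTG2, TOB2 and PPP1R15A and in 33.3% of the tested coding genes. Letters were read on the transcript strand, and decay was not measured.

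Of 86 tested partner and pathway genes in 6 lists, 4 were higher and 2 lower (6.98%, beside 3.31% of all tested genes). The lists were chosen with earlier results of these data known, so these shares are not an independent comparison. Of 14 GADD45 partners and stress kinases 0 were higher and 0 lower, with a median log2 fold change of 0.03. Among them MAP3K4, the kinase that GADD45 proteins activate, stood at 51.6 ± 3.19 CPM with TGFB1 and 50.8 ± 3.26 CPM with Vehicle, and PCNA at 428.2 ± 19.1 CPM with TGFB1 and 414.2 ± 14.8 CPM with Vehicle (SD, n = 3 each; edgeR adjusted p = 0.942 and 0.776). CDK1 (log2 fold change -0.07) and CCNB1 (-0.05), which encode the mitotic kinase and its cyclin, did not pass either.

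Of 18 CCR4-NOT and poly(A) genes 1 was higher and 0 were lower (5.56%, beside 3.31% of all tested genes). Their median log2 fold change was -0.01. The deadenylase genes CNOT7 (116.7 ± 3.26 CPM with TGFB1 and 121.1 ± 4.15 CPM with Vehicle) and CNOT8 (101.0 ± 5.22 CPM with TGFB1 and 103.2 ± 4.75 CPM with Vehicle; SD, n = 3 each) did not pass (edgeR adjusted p = 0.772 and 0.909). TENT4A, a noncanonical poly(A) polymerase gene, was at 47.4 ± 1.54 CPM with TGFB1 and 39.7 ± 3.22 CPM with Vehicle (SD, n = 3 each), and its log2 fold change was 0.25 (edgeR adjusted p = 0.0441). That call was lost in 9 of 15 alternatives, among them the omission of any library but Vehicle replicate 3. Outside the 8 genes the BTG family has BTG3, at 22.6 ± 1.32 CPM with TGFB1 and 21.9 ± 1.38 CPM with Vehicle (SD, n = 3 each; log2 fold change 0.05, edgeR adjusted p = 0.909), and BTG4, which was too low to be tested.

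Of 9 eIF2alpha kinase and phosphatase genes 0 were higher and 0 lower (median log2 fold change 0.04), PPP1R15B (0.10) among them. The integrated stress response is the programme of ATF4 and CHOP in which PPP1R15A acts as feedback. Of its 19 listed genes 1 was higher and 1 lower (10.5%, beside 3.31% of all tested genes). Their median log2 fold change was 0.09. DDIT4, which encodes an inhibitor of mTORC1, stood at 78.5, 77.99 and 78.2 CPM in TGFB1 replicates 1, 2 and 3, against 110.7, 113.1 and 105.6 CPM in Vehicle replicates 1, 2 and 3, and fell by 0.49 on the log2 scale (edgeR adjusted p = 6.86e-08). CEBPB, a transcription factor gene, rose by 0.21 (edgeR adjusted p = 0.0365), a call lost in 7 of 15 alternatives, among them the omission of TGFB1 replicate 1 or 3 or Vehicle replicate 1 or 2. ATF4 (log2 fold change -0.00, edgeR adjusted p = 0.987) and DDIT3, the CHOP gene (-0.29, adjusted p = 0.102), did not pass.

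Of 25 tested p53 target genes 2 were higher and 1 lower (12%, beside 3.31% of all tested genes). The median log2 fold change of the list was 0.04. PLK3, a stress-responsive polo-like kinase gene, was at 19.0, 17.3 and 18.5 CPM in TGFB1 replicates 1, 2 and 3, against 10.4, 9.59 and 11.7 CPM in Vehicle replicates 1, 2 and 3, a log2 fold change of 0.79 ± 0.11 (SE, edgeR adjusted p = 3.84e-06). PHLDA3, whose protein restrains AKT, rose by 0.53 (edgeR adjusted p = 2.69e-05), and PLK2, another polo-like kinase gene, fell by 0.34 (edgeR adjusted p = 5.95e-05). CDKN1A, which encodes p21, was at 78.2 ± 2.02 CPM with TGFB1 and 72.5 ± 3.01 CPM with Vehicle, and MDM2 at 224.0 ± 10.6 CPM with TGFB1 and 237.5 ± 9.98 CPM with Vehicle (SD, n = 3 each; edgeR adjusted p = 0.471 and 0.549).

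**Figure D4:**
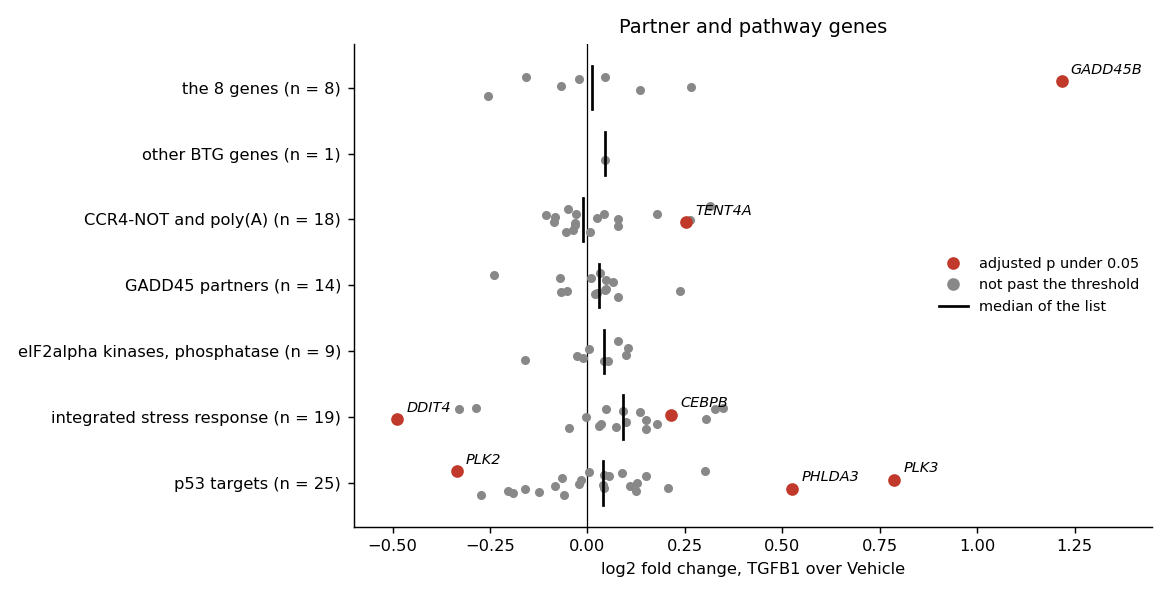
Change on the log2 scale (TGFB1 over Vehicle) for every tested gene in the 8-gene set and in the 6 partner and pathway lists; red points passed an adjusted p of 0.05 and are named, grey points did not, and the vertical bar is the median of each list (vertical scatter has no meaning). The red points are GADD45B, TENT4A, DDIT4, CEBPB, PLK2, PLK3 and PHLDA3, and each median lies between -0.01 and 0.09.

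The profile of GADD45B over the 6 libraries was closest to those of CLDN4, UCN2 and VMP1. Likeness was the root mean square difference of log2 CPM, each gene centred on its own mean, among genes averaging at least 1 CPM. The tight junction gene CLDN4 (difference 0.09) was at 11.9 ± 0.713 CPM with TGFB1 and 4.91 ± 0.790 CPM with Vehicle. UCN2, a peptide hormone gene (0.10), was at 30.2 ± 1.66 CPM with TGFB1 and 12.5 ± 1.48 CPM with Vehicle, and the autophagy gene VMP1 (0.10) at 446.05 ± 10.1 CPM with TGFB1 and 190.2 ± 16.3 CPM with Vehicle (SD, n = 3 each). Their log2 fold changes were 1.29, 1.27 and 1.23. Values near that of GADD45B follow largely from the choice by likeness over these same libraries. Shared regulation was not tested.

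**Figure D5:**
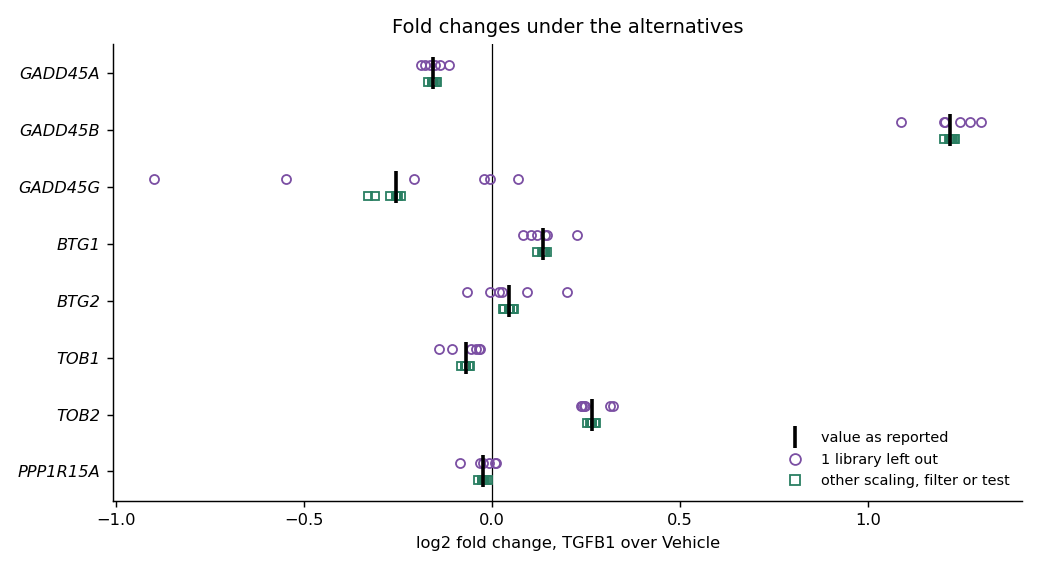
Values of the log2 fold change of each gene as reported (black bar), with 1 library left out (open circles) and under the other scalings, filters and tests (open squares). GADD45B stays between 1.09 and 1.30, while GADD45G, with few reads, runs from -0.90 to 0.07.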

How the data were processed

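Raw read counts per gene were used as the authors deposited them, in a table of 58051 Ensembl gene IDs and 6 libraries. The tools were cutadapt, TopHat2 2.1 and HTSeq and the build GRCh38, per the submitters' processing notes; the sources used here give no annotation release, counting mode or strand setting. The labels name polyA RNA, while their protocol describes ribosomal RNA depletion. The edgeR filter filterByExpr, at a count of 10 and a total of 15, left 16690 genes, which were scaled by TMM and tested with edgeR's quasi-likelihood test (edgeR 4.0.16, R 4.3.3, robust) with the group as sole term, all 6 libraries and Benjamini-Hochberg adjustment at 0.05. The SE is the absolute log2 fold change over the square root of F, and CPM and counts cover 3 libraries a group. Tested on 1 draw of simulated counts, the fit gave no wrong direction and missed more of the smaller changes. In that draw, false calls were a larger share of its calls than the threshold of 0.05 allows for. Paralog ratios were compared by exact permutation. Symbols come from a current name table, coordinates, exon lengths and transcripts from GENCODE 29, and promoters from RefSeq. Named genes are the 8 genes, up to 4 called genes with the smallest p per list, the 3 closest profiles to a called gene and SMAD7; other partner genes were named for their role after their values were seen. The genes and lists were chosen with earlier results of these data known. Alternatives were DESeq2 size factors, upper-quartile and total-count scaling, no filter, at least 50 counts in 3 libraries, DESeq2 1.42.0, limma-voom (limma 3.58.1), a replicate block, a threshold of 0.01 and each library left out. No library duplicated another: chi-square over degrees of freedom was 4.74 to 8.02 between TGFB1 libraries and 10.1 to 22 between Vehicle libraries.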

Additional observations from a re-analysis of the deposited data

How the results depend on the processing

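GADD45B stayed past the threshold in all 15 alternatives, with log2 fold changes from 1.09 to 1.30 and adjusted p up to 9.57e-07; leaving out any 1 library kept its share of the GADD45 level at 28.1 to 28.6% with TGFB1 and 12.3 to 14.3% with Vehicle. GADD45A, TOB1 and TOB2 kept their directions and stayed short of the threshold in all 15. With 1 library left out, the 8 genes had 1 to 2 higher and 0 lower, the second being BTG1 without Vehicle replicate 3. BTG1 then ranged from 0.082 to 0.23, GADD45G from -0.90 to 0.068, BTG2 from -0.066 to 0.20, PPP1R15A from -0.086 to 0.011 and the BTG2 to BTG1 log2 ratio difference from -0.23 to 0.044. GADD45G turned positive without Vehicle replicate 3 (0.068), BTG2 negative without TGFB1 replicate 1 (-0.066) or 3 (-0.0046), PPP1R15A positive without TGFB1 replicate 2 (0.0091) or 3 (0.011) and that ratio positive without TGFB1 replicate 2 (0.044). None of these GADD45G, BTG2 and PPP1R15A values was past the threshold, and the ratio was not tested with a library left out. GADD45G was not tested with at least 50 counts in 3 libraries.

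Over all genes, leaving out 1 library gave 365 (without TGFB1 replicate 1) to 923 (without Vehicle replicate 3) changed genes, 264 to 683 higher and 97 to 240 lower; at an adjusted p under 0.01 the lower genes numbered 95. Partner genes higher numbered 2 with upper-quartile scaling, limma-voom or a threshold of 0.01, 7 with the replicate block and 2 to 8 with 1 library left out (2 without TGFB1 replicate 1 or 3 or Vehicle replicate 1 or 2, and 8 without Vehicle replicate 3), and those lower 2 to 4. The cause was not tested. Deviations from the group means correlated little between same-numbered libraries (-0.03, 0.04 and 0.01 across all tested genes). Genes with few counts are included there, so these values cannot show whether the numbers mark pairs. With the replicate block 601 genes were called, beside 553 without it, and 1 of the 8, GADD45B. Depth limits GADD45G, with 7 to 20 reads per library, and to a lesser degree BTG2.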
